A study of Mus musculus with 4 samples.

Results

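Chromatin accessibility at 3 genes of the hyperpolarization-activated, cyclic nucleotide-gated (HCN) channel family, Hcn2, Hcn3 and Hcn4, was examined in single nuclei from the mouse cortex and hippocampus. These 3 genes were taken as a list, out of 21884 protein-coding genes, and each was measured over its body plus 20 kb on either side, called its window here. The nuclei came from P30 (postnatal day 30) mice of the genotype Dlx6aCre;Sun1/sfGFP, in which a Cre driver active in forebrain inhibitory neurons switches on a green fluorescent protein of the nuclear envelope, and DAPI+/GFP+ nuclei were sorted. All 4 libraries share this genotype and age. Apart from a replicate number, the labels set them apart by brain region, with 2 libraries from cortex and 2 from hippocampus. The single-nucleus assay for transposase-accessible chromatin counts the positions at which a transposase cut open DNA, so that a count reports an accessible site and not an RNA level.

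HCN channels are cation channels that open when the membrane becomes more negative, and they carry the current that sets resting potential, rebound firing and rhythmic activity in many neurons. Their subunits assemble into channels around a shared pore, and binding of cyclic AMP to an intracellular domain makes opening easier, strongly so for channels with Hcn2 or Hcn4 subunits. Hcn2 is widely used in the brain, Hcn4 is known as the main pacemaker subunit of the heart and is also found in subsets of neurons, and Hcn3 is less studied. Among inhibitory neurons, Pvalb (parvalbumin) and Sst (somatostatin) mark the main classes that arise in the medial ganglionic eminence, while Adarb2 marks those from the caudal ganglionic eminence.

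The libraries held 2355 and 4191 nuclei in cortex replicates 1 and 2 and 5576 and 3184 in hippocampus replicates 1 and 2. Their totals ranged from 32005984 to 117290059 cut sites in peaks, and the median nucleus held 47236 cut sites in cortex replicate 1 against 7352 to 14917 in the other libraries, so cortex replicate 1 stood apart. Pairs of libraries shared 11 to 47 barcodes, at most 1.12% of the smaller library. Genes of the pan-GABA list (Gad1, Gad2 and other genes of inhibitory neurons) summed to 829 to 1341 CPM (cut sites per 1000000 cut sites in peaks) in the 4 libraries, and none of its 9 genes was at 0. Excitatory markers summed to 40.0 to 68.7 CPM over 7 genes, of which 1 to 5 were at 0. Oligodendrocyte lineage markers summed to 274 to 383 CPM over 10 genes (0 to 5 at 0) and microglia markers to 204 to 265 CPM over 5 genes (0 to 2 at 0), so these lists were well above 0 in the sorted nuclei. Lists of values by library run in the order cortex 1, cortex 2, hippocampus 1 and hippocampus 2.

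Each library had its own set of peaks, and overlapping peaks of different libraries were merged into regions, numbered along each gene's own direction. Hcn2 (ENSMUSG00000020331, chromosome 10, 79716634 to 79736108, plus strand, GRCm38) had 10 regions in its window. Hcn3 (ENSMUSG00000028051, chromosome 3, 89146074 to 89160196, minus strand) had 15, and Hcn4 (ENSMUSG00000032338, chromosome 9, 58823412 to 58863175, plus strand) had 17. Of these 42 regions, 16 held a peak of every library and are called common regions here, 7 at Hcn2, 4 at Hcn3 and 5 at Hcn4. Hcn3 had 9 regions with a peak in 1 library, all of them in hippocampus replicate 1, which also had the most peaks of any library.

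Shown first are the 250 bases before the RefSeq start of Hcn2 and of Hcn4, whose start regions held a peak of every library. The Hcn4 stretch ends at 58822948, short of the Hcn4 start at 58823412 that is used for all distances. Whether peaks of every library cover the printed promoter bases was not examined. Then follow 300 bases of each of 3 body regions whose accessibility differed between groups of nuclei below. These 300 bases are the middle of the longest stretch covered by peaks of all 4 libraries, 560 bases long in Hcn2-r5, 450 in Hcn2-r7 and 676 in Hcn4-r11, which need not be the middle of the region. RefSeq promoter entries matched 2 of the 3 genes, and Hcn3 was not among them. All are written 5′ to 3′ on the GRCm38 plus strand, with capitals at matches to any of 7 short motifs on either strand, namely the GC box (GGGCGG), the cyclic AMP response element (TGACGTCA), the AP-1 site (TGANTCA), an E-box (CAGCTG), a homeobox core (TAATTA), the nuclear receptor half-site (AGGTCA) and a MEF2 core (TATTTATA).
Hcn2 promoter, chr10:79716384-79716633: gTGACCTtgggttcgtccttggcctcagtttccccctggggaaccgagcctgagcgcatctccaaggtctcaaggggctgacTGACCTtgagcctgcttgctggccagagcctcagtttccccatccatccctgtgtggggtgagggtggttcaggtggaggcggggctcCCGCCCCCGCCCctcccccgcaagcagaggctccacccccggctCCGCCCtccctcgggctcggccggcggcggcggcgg
Hcn4 promoter, chr9:58822699-58822948: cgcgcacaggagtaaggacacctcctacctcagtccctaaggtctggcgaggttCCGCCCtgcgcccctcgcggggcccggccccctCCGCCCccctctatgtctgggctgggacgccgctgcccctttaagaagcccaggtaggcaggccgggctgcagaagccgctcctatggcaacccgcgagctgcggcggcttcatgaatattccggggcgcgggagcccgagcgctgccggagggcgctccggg
Hcn2-r5, chr10:79723131-79723430: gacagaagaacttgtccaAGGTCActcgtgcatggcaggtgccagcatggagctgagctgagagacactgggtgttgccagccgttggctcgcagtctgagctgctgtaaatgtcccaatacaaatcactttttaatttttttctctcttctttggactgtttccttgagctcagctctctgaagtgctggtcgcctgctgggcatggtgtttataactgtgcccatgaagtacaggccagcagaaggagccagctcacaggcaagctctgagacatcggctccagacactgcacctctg
Hcn2-r7, chr10:79729292-79729591: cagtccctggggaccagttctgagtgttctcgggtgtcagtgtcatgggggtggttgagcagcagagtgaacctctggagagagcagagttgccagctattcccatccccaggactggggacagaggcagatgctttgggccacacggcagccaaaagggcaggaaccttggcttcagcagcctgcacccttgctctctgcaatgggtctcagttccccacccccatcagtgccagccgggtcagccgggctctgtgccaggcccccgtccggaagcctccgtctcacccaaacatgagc
Hcn4-r11, chr9:58842763-58843062: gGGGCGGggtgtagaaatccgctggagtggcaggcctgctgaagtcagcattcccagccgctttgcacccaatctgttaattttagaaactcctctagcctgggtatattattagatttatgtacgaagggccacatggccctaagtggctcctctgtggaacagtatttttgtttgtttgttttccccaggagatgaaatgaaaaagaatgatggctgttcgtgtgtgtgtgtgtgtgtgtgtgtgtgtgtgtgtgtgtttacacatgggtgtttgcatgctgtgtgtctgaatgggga

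The 2 promoters were rich in G and C, at 70.4% for Hcn2 and 71.2% for Hcn4 against a median of 52.4% over 32817 promoters of the same length. They held 16 and 25 CpG dinucleotides against a median of 6. The capitals in the Hcn2 promoter are 3 GC boxes and 2 nuclear receptor half-sites, and those in the Hcn4 promoter are 2 GC boxes. GC boxes occurred in 32.7% of all promoters and the half-site in 14.0%. The body regions were less extreme, with 52.0%, 62.0% and 47.3% G and C in Hcn2-r5, Hcn2-r7 and Hcn4-r11 against a median of 53.7% over 300-base stretches taken in the same way from 34190 common regions. Hcn2-r5 held 1 nuclear receptor half-site, a motif found in 11.8% of those regions, and Hcn4-r11 held 1 GC box, found in 29.1%. No letters of the 7 motifs were found in the Hcn2-r7 stretch. None of the 5 stretches held the cyclic AMP response element, which occurred in 1.55% of promoters and 1.50% of regions.

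**Figure D1:**
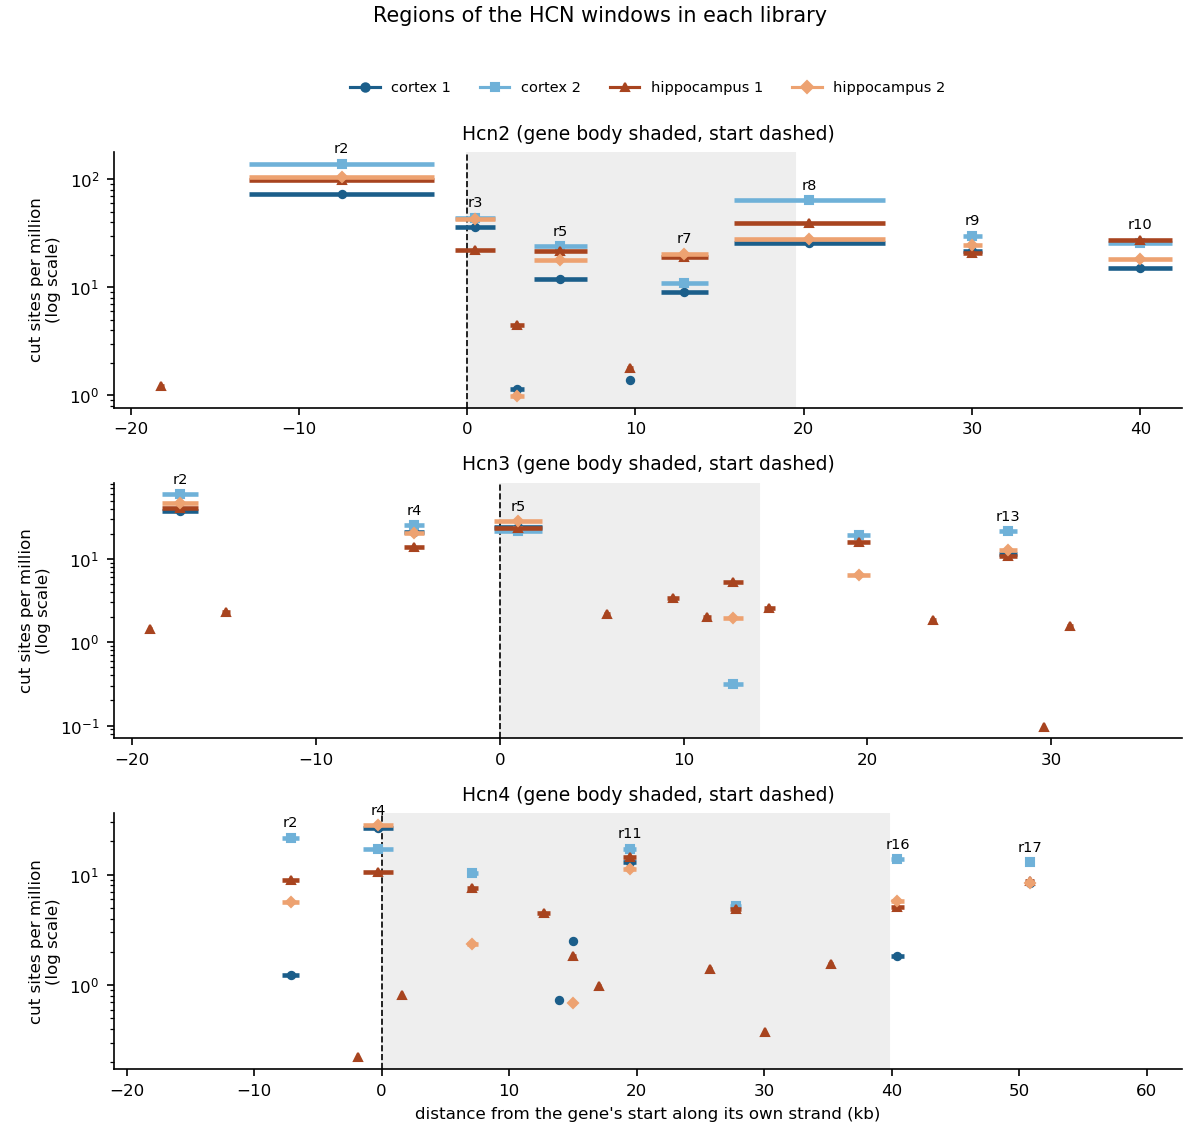
Accessibility in CPM (log scale) of each region in the windows of Hcn2, Hcn3 and Hcn4 against distance from the gene's start in kb. Horizontal bars span a merged region, markers and colours give the library, labels mark regions with a peak in all 4 libraries, and regions at 0 in a library are not drawn. Start regions (Hcn2-r3, Hcn3-r5, Hcn4-r4) have a value in every library, and isolated triangles are regions found only in hippocampus replicate 1.

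The Hcn2 window held more cut sites than most genes' windows, while much of that signal lay at neighbouring genes. Its window level was 194.76, 332.5, 256.63 and 255.77 CPM, between percentiles 94.7 and 98.4 of windows. Per kb of peak it was 8.99, 23.2, 7.88 and 13.6 CPM, between percentiles 19.1 and 28.7, so the high window total came with a long covered length of 14345 to 32588 bases. Regions at the starts of Bsg, Polrmt and Fgf22 (Hcn2-r2, Hcn2-r9 and Hcn2-r10) carried 56.9% to 58.8% of the window's cut sites.

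The start region of Hcn2, Hcn2-r3 (79715917 to 79718263, covering the promoter shown above, the first exon and part of the first intron), had 36.4, 44.3, 22.0 and 43.0 CPM. Hippocampus replicate 1 was the low library, and the groups overlapped. Inside the gene body, Hcn2-r5 (79720608 to 79723742, in the first intron) had 11.8, 23.9, 21.8 and 17.8 CPM. Hcn2-r7 (79728135 to 79730951, over coding exons and the introns between them) had 8.98, 10.9, 19.0 and 20.4 CPM. Both hippocampus libraries lay above both cortex libraries at Hcn2-r7. Hcn2-r8, which runs past the end of the gene, had 25.9, 63.9, 39.2 and 27.9 CPM.

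The Hcn3 window was the densest of the 3 per covered length. It had 95.4, 147.66, 127.67 and 116.87 CPM, and 16.5, 37.9, 10.6 and 19.5 CPM per kb of peak, between percentiles 55.7 and 79.5 of genes. Regions at the starts of Scamp3 and Clk2 (Hcn3-r2 and Hcn3-r4) carried 42.9% to 62.2% of its cut sites. The start region, Hcn3-r5 (89157889 to 89160535), had 24.5, 21.8, 23.4 and 28.5 CPM, the smallest spread of the 3 start regions as merged. Peaks covered 2393, 920, 2647 and 2374 bases of it. Counting only peaks within 1 kb of the start gave 24.5, 11.2, 23.4 and 28.5 CPM, with cortex replicate 2 then the low library. The rest of the Hcn3 body had few cut sites, with 4 regions that together carried 0% to 10.0% of the window's cut sites.

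The Hcn4 window held no start of another gene. Its level was 54.1, 98.1, 72.1 and 62.3 CPM, against a median window of 50.3 to 55.0 CPM and between percentiles 51.3 and 69.7 of windows. Per kb of peak it was 10.1, 21.4, 7.66 and 12.5 CPM, between percentiles 12.1 and 38.1. The start region, Hcn4-r4 (58821957 to 58824283), had 26.3, 16.9, 10.6 and 28.1 CPM, with 1 high and 1 low library in each brain region. It carried 48.7% and 45.2% of the window's cut sites in cortex replicate 1 and hippocampus replicate 2, but 17.3% and 14.8% in the other libraries. Peaks covered 2327, 704, 1045 and 1915 bases of it, so the libraries with more cut sites also had the longer peaks.

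The body of Hcn4 held 11 regions, of which 1 was common. That region, Hcn4-r11 (58842363 to 58843394, in an intron 18.951 to 19.982 kb after the start), varied little between libraries, at 13.1, 17.2, 14.5 and 11.2 CPM, and peaks covered 710 to 1020 of its 1032 bases. The intergenic regions Hcn4-r2 and Hcn4-r16 varied most. Hcn4-r2, upstream of the start (-7.83 to -6.44 kb), had 1.24, 21.6, 8.95 and 5.67 CPM, and cortex replicates 1 and 2 were the lowest and the highest library. Hcn4-r16, just past the gene's end, had 1.82, 13.9, 5.11 and 5.76 CPM with the same libraries at the extremes.

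None of the 3 windows was shown to differ between hippocampus and cortex. The hippocampus mean of Hcn2 was 256.2 ± 0.610 CPM and the cortex mean 263.63 ± 97.4 (SD, n = 2), a log2 fold change of -0.04 ± 0.31 (SE). Hcn3 had 122.27 ± 7.63 against 121.53 ± 37.0 CPM, a log2 fold change of 0.01 ± 0.29. Hcn4 had 67.2 ± 6.99 against 76.1 ± 31.1 CPM, a log2 fold change of -0.18 ± 0.27. The groups overlapped for all 3 genes, none had an unadjusted p under 0.05, and all had an adjusted p of 1.00 in edgeR's quasi-likelihood test with Benjamini-Hochberg adjustment over 18350 windows. DESeq2 called none of the 3 either. Called windows made up 0.0872% of the windows tested, and 22.4% of windows had groups that did not overlap. The labels do not say that libraries came from separate mice, so p-values measure only the spread between these libraries.

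Of the 16 common HCN regions 0 passed the same test over 46698 common regions, where 0.589% were called. At an unadjusted p under 0.05 there was 1, Hcn2-r7, higher in hippocampus with a log2 fold change of 0.99 ± 0.34 and an adjusted p of 0.220 by edgeR. DESeq2 called it (log2 fold change 1.15, adjusted p 0.0336). Peaks covered 1695, 723, 2817 and 1707 bases of Hcn2-r7, where the libraries had 8.98, 10.9, 19.0 and 20.4 CPM. With covered length as an offset the log2 fold change was -0.12, beside a median of -0.46 over all common regions. The part of peak length in the difference was not tested further. Its groups did not overlap, as was the case at 2 of the 16 regions and 37.0% of all common regions. The other was Hcn3-r4 at the start of Clk2, lower in hippocampus, with 21.3 and 25.3 CPM in cortex and 13.9 and 20.3 in hippocampus.

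The start regions did not pass either. Their log2 fold changes were -0.31 ± 0.41 for Hcn2-r3, 0.16 ± 0.36 for Hcn3-r5 and -0.16 ± 0.47 for Hcn4-r4, all with an adjusted p of 0.965 or 0.966 by edgeR. The regions with the smallest p at the other genes were Hcn3-r13, 27.142 to 28.131 kb after the Hcn3 start (-0.48 ± 0.36, adjusted p 0.888), and Hcn4-r17, past the end of Hcn4 (-0.31 ± 0.35, adjusted p 0.965). On the log2 scale the SE was largest for Hcn4-r2 and Hcn4-r16, at 1.76 and 1.24. Each passed without cortex replicate 1 (log2 fold changes -1.56 and -1.35), and Hcn4-r2 passed in the opposite direction without cortex replicate 2 (2.55).

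To ask whether accessibility followed interneuron class, nuclei were chosen within each library by their cut sites at a marker gene. The Pvalb gate, the Sst gate and the Adarb2 gate each took the nuclei that were in the top 10% by the share of cut sites in the marker's body and the 2 kb before it and had at least 2 cut sites there, and nuclei in several gates were left out. The minimum of 2 cut sites made the Sst gate narrower in 3 libraries. Before nuclei in several gates were removed, the Sst choice took 9.98%, 4.81%, 5.39% and 4.37% of nuclei with at least 1000 cut sites, which in the last 3 libraries was every such nucleus with at least 2 cut sites at Sst. The Pvalb and Adarb2 choices took 8.71% to 9.98% and 8.49% to 9.98%. The gates held 222 to 485, 127 to 264 and 215 to 501 nuclei per library, and counts were summed within a gate and library. In such sums, fewer nuclei with an open site and fewer cut sites per nucleus cannot be told apart. Because the same peaks are counted in all gates of a library, peak length does not differ between the gates compared within it. Peak length does differ between libraries, so the bases behind a gate difference are not the same in each library. Median depth was 51580, 9282.5, 14646 and 16244.5 cut sites per nucleus in the Pvalb gates and 46011.5, 8826, 17211.5 and 18492 in the Sst gates. The Adarb2 gates were the shallowest in 4 of 4 libraries, at 40498, 8250, 10902 and 12947.5.

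The gates carried other markers of the classes they were meant to hold, to an uneven degree. In the Pvalb gate 4 of 6 further Pvalb-type genes (Syt2, Pthlh, Cox6a2 and Kcnc1) were highest in all 4 libraries. In the Sst gate this held for 1 of 6 Sst-type genes, Elfn1. Of 7 further genes of the medial ganglionic eminence list, Lhx6 and Satb1 were highest in the Sst gate in all 4 libraries. Sox6 of the same list was highest in the Pvalb gate in all 4. In the Adarb2 gate it held for 5 of 10 caudal ganglionic eminence genes (Lamp5, Cnr1, Npas1, Nr2f2 and Htr3a). Markers of other cells were also counted in the gates. The 10 oligodendrocyte lineage genes summed to 326, 276, 317 and 339 CPM in the Pvalb gate, 342, 244, 279 and 261 in the Sst gate and 314, 251, 366 and 332 in the Adarb2 gate, so the Pvalb gate was above the Sst gate in 3 of 4 libraries. Olig1 of that list was highest in the Pvalb gate in all 4, and Cspg4 was highest in the Adarb2 gate in all 4. The 5 microglia genes summed to 210, 277, 258 and 206 CPM in the Pvalb gate, 200, 230, 228 and 219 in the Sst gate and 191, 249.4, 233 and 204 in the Adarb2 gate, again with the Pvalb gate above the Sst gate in 3 of 4. The part of these cells in the results below was not tested.

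Hcn2 was the single HCN gene whose window passed the test between gates. Its level in the Pvalb gate was 210.2, 335, 268 and 261 CPM, and in the Sst gate 175, 323, 221 and 226. The Pvalb gate was higher in 4 of 4 libraries, by a log2 fold change of 0.21 ± 0.05 (adjusted p 0.0142, edgeR with library as a block). The Adarb2 gate lay between them in 3 libraries, at 188, 320.0, 238 and 250.4 CPM, and was the lowest in cortex replicate 2. Against Adarb2 the log2 fold change was 0.12 ± 0.05 for Pvalb (adjusted p 0.172) and -0.09 ± 0.06 for Sst (adjusted p 0.359). Called windows made up 7.88% of 18459 tested for Pvalb against Sst, 10.1% for Pvalb against Adarb2 and 10.5% for Sst against Adarb2, so 1, 0 and 0 of 3 HCN genes are to be read against those shares. The Hcn2 call was lost without cortex replicate 1 (adjusted p 0.114), without hippocampus replicate 1 (0.105) or without hippocampus replicate 2 (0.0594) by edgeR, with log2 fold changes of 0.18 to 0.25 over the 4 fits that left out a library. It was also lost with a gate of the top 5% (0.23, adjusted p 0.0553) and with markers counted over 20 kb on either side (0.12, adjusted p 0.340).

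Hcn3 was at 95.2, 161, 128 and 119.7 CPM in the Pvalb gate, 87.9, 139, 127 and 132 in the Sst gate and 96.2, 134, 128 and 119 in the Adarb2 gate, an order that changed from library to library. Hcn4 was at 51.0, 96.4, 70.0 and 57.3 CPM in the Pvalb gate, below the Sst gate (63.0, 113, 70.2 and 63.9) and the Adarb2 gate (56.1, 97.5, 74.9 and 62.0) in 4 of 4 libraries each. These differences did not pass, with log2 fold changes of -0.18 ± 0.09 against Sst (adjusted p 0.245) and -0.09 ± 0.09 against Adarb2 (adjusted p 0.565, edgeR). For Hcn3 the 3 log2 fold changes were 0.05 ± 0.07, 0.06 ± 0.07 and 0.00 ± 0.07 for Pvalb against Sst, Pvalb against Adarb2 and Sst against Adarb2, with adjusted p of 0.752, 0.692 and 0.988.

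**Figure D2:**
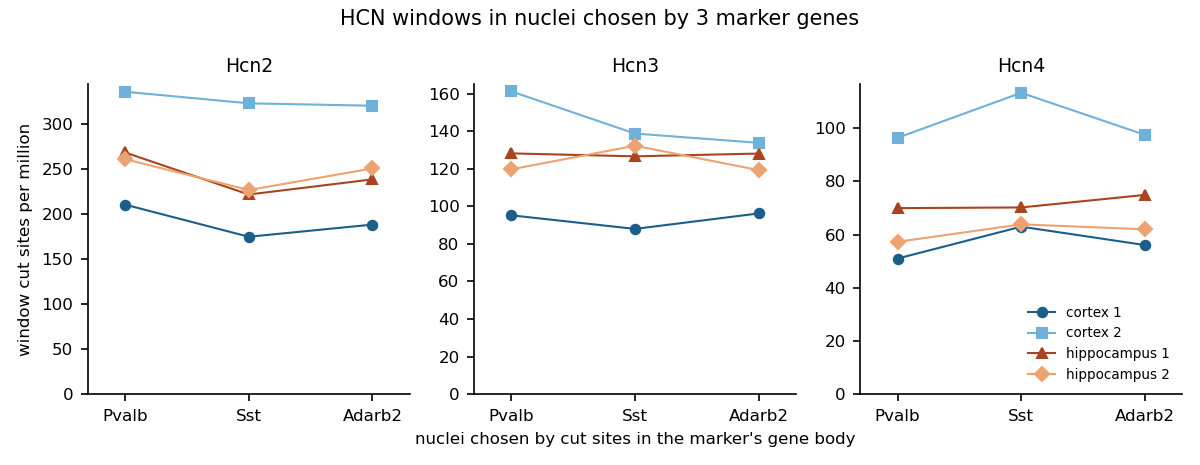
Accessibility in CPM in the windows of Hcn2, Hcn3 and Hcn4, summed over nuclei of the Pvalb, Sst and Adarb2 gates. Each line is a library and the axes start at 0. Hcn2 is higher in the Pvalb gate than in the Sst gate in 4 of 4 libraries, Hcn4 is lower, and Hcn3 has no common order.

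Taken region by region, Hcn4 changed in opposite directions at its start and in its intron. At the start, Hcn4-r4 had 16.3, 10.5, 10.8 and 21.4 CPM in the Pvalb gate. It had 36.8, 21.7, 13.5 and 27.8 in the Sst gate and 31.8, 20.1, 11.3 and 31.0 in the Adarb2 gate. The Pvalb gate was lowest in 4 of 4 libraries, by a log2 fold change of -0.74 ± 0.18 against Sst (adjusted p 0.00539) and -0.62 ± 0.18 against Adarb2 (adjusted p 0.0141, edgeR). The Sst and Adarb2 gates were not shown to differ (0.11 ± 0.18, adjusted p 0.749). In hippocampus replicate 1 the 3 gates were closest to each other.

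Hcn4-r11, the intronic region, went the other way. It had 20.5, 22.3, 15.3 and 13.2 CPM in the Pvalb gate, 7.71, 11.5, 10.8 and 9.42 in the Sst gate and 10.1, 15.8, 12.2 and 11.9 in the Adarb2 gate. The Pvalb gate was highest in 4 of 4 libraries. Its log2 fold change was 0.87 ± 0.23 against Sst (adjusted p 0.00758) and 0.53 ± 0.22 against Adarb2 (adjusted p 0.0887, edgeR, not past the threshold). The counts behind Hcn4-r11 were 60 to 237 cut sites per library in the Pvalb gate and 19 to 77 in the Sst gate. At Hcn4-r17 beyond the gene, the Sst gate was higher than the Adarb2 gate in 4 of 4 libraries, with a log2 fold change of 0.58 ± 0.26 that did not pass (adjusted p 0.131).

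At Hcn2 the regions that passed lay in the gene body. Hcn2-r5 had 14.5, 23.3, 21.8 and 20.7 CPM in the Pvalb gate, 7.41, 19.3, 17.0 and 10.2 in the Sst gate and 14.8, 27.0, 20.9 and 14.0 in the Adarb2 gate. The Sst gate was lowest in 4 of 4 libraries, and the log2 fold change was 0.66 ± 0.20 for Pvalb against Sst (adjusted p 0.0229) and -0.57 ± 0.20 for Sst against Adarb2 (adjusted p 0.0432, edgeR). The second call was lost in each of the 4 fits that left out a library (adjusted p 0.0618 to 0.315). Hcn2-r7 had 10.0, 11.5, 18.1 and 19.8 CPM in the Pvalb gate against 3.31, 6.63, 14.1 and 12.3 in the Sst gate, a log2 fold change of 0.83 ± 0.25 (adjusted p 0.0194). In the Adarb2 gate it was at 6.80, 11.6, 15.0 and 13.5 CPM, and the comparison with Pvalb did not pass (0.37 ± 0.23, adjusted p 0.319).

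The start of Hcn2 leaned the same way without passing. Hcn2-r3 had 38.8, 49.9, 21.9 and 46.9 CPM in the Pvalb gate and 34.5, 35.0, 16.2 and 38.9 in the Sst gate, higher in 4 of 4 libraries with a log2 fold change of 0.32 ± 0.12 (adjusted p 0.0762, edgeR). Hcn2-r2, at the start of the neighbouring gene Bsg and the region with the most cut sites in the window, had a log2 fold change of 0.07 ± 0.08 between the same gates (adjusted p 0.647). Between these gates Hcn2-r8 was at 0.35 ± 0.15 (adjusted p 0.115), higher in the Pvalb gate in 3 of 4 libraries. Hcn2-r10 at the start of Fgf22 was at 0.27 ± 0.17 (adjusted p 0.321). At the start of Polrmt, Hcn2-r9 was at -0.10 ± 0.16 (adjusted p 0.769). Hcn2-r8 had the smallest p of the Hcn2 regions for Pvalb against Adarb2 (0.25 ± 0.14, adjusted p 0.249).

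**Figure D3:**
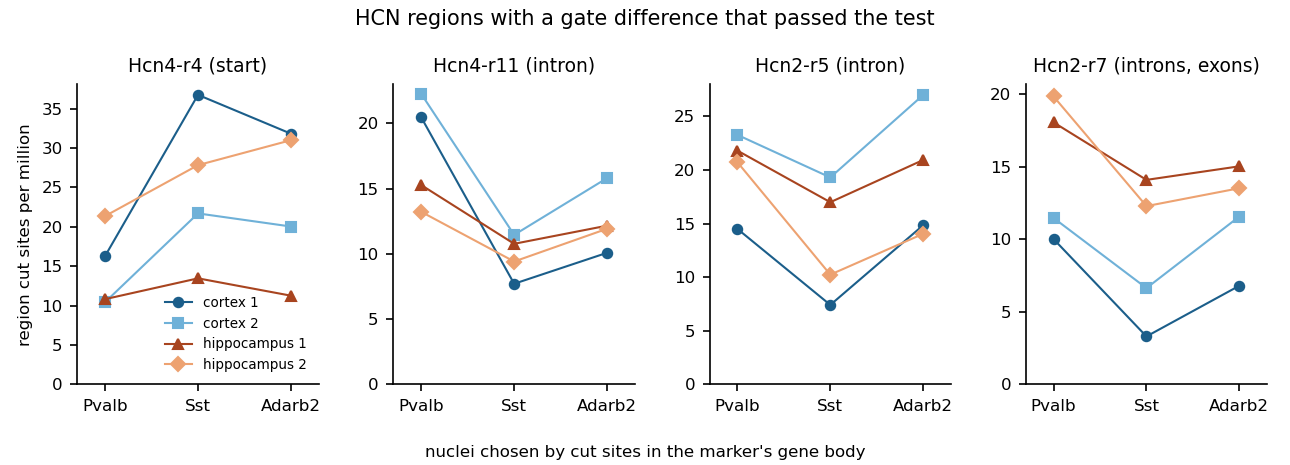
Accessibility in CPM at the 4 HCN regions with a gate difference past the threshold, summed over nuclei of the Pvalb, Sst and Adarb2 gates, with a line per library and axes from 0. Hcn4-r4 at the gene's start is lowest in the Pvalb gate and Hcn4-r11 in its intron is highest there, in 4 of 4 libraries each, while Hcn2-r5 and Hcn2-r7 are lower in the Sst gate than in the Pvalb gate.

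In all, 4 of 16 common HCN regions passed for Pvalb against Sst, 3 of them higher in the Pvalb gate, where 15.0% of 46675 common regions were called. For Pvalb against Adarb2 it was 1 of 16 against 17.7%, and for Sst against Adarb2 1 of 16 against 20.2%. The median log2 fold changes of the 16 were 0.09, 0.08 and -0.07, beside 0.02, 0.03 and 0.01 over all common regions. These 3 contrasts share gates, so their values are not independent of each other. No Hcn3 region passed in any of them by edgeR or DESeq2, and none had an unadjusted p under 0.05. Its start region Hcn3-r5 had log2 fold changes of -0.18 ± 0.17, -0.14 ± 0.16 and 0.03 ± 0.17 (adjusted p 0.571, 0.631 and 0.932). The smallest p of an Hcn3 region was at Hcn3-r2 in the first 2 contrasts (0.13 ± 0.11 and 0.11 ± 0.11) and at Hcn3-r13 in the third (-0.10 ± 0.21).

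Without cortex replicate 1, the library with the most cut sites, none of the 16 HCN regions passed for any of the 3 contrasts. The log2 fold changes were then -0.53 and -0.47 for Hcn4-r4 against Sst and Adarb2, and 0.63, 0.53 and 0.55 for Hcn4-r11, Hcn2-r5 and Hcn2-r7 against Sst, with the directions unchanged and adjusted p of 0.165 to 0.237. For Hcn2-r5 in Sst against Adarb2 it was -0.39 (adjusted p 0.315). With the markers counted over 20 kb on either side, 1 of these 6 contrasts passed, Hcn4-r4 against Adarb2 (-0.64, adjusted p 0.0408), and Hcn2-r5 in Sst against Adarb2 was at -0.19 (adjusted p 0.635).

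**Figure D4:**
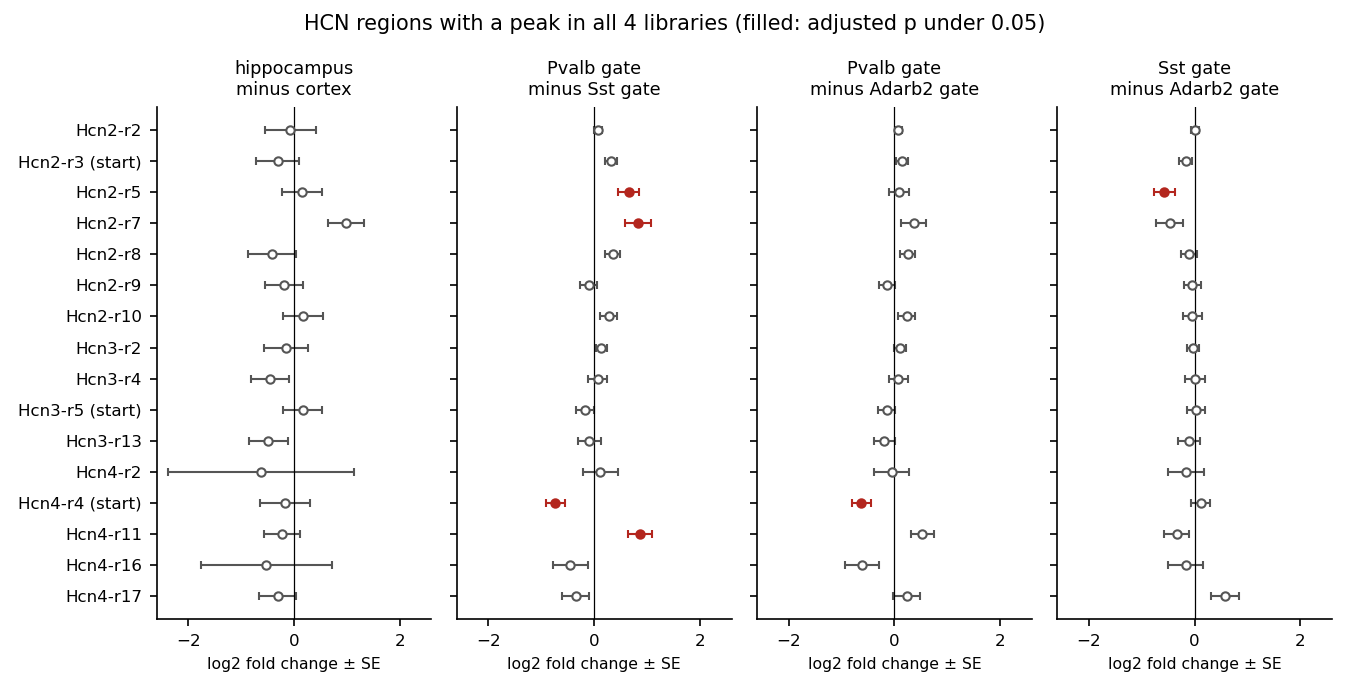
Log2 fold change with its standard error (edgeR) of the 16 common HCN regions for hippocampus minus cortex (2 against 2 libraries) and for 3 contrasts between gates (4 libraries, library as a block). Filled red points have an adjusted p under 0.05, which is the case for 0 regions between brain regions, 4 for Pvalb minus Sst and 1 in each of the other gate contrasts.

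Whether the gate differences themselves differed between hippocampus and cortex was tested as an interaction. For the windows 0 of 3 HCN genes passed in each contrast, with a smallest adjusted p of 0.780 (Hcn3, Pvalb against Sst), and none had an unadjusted p under 0.05. Called windows made up 0.119% for Pvalb against Sst, 0.0325% for Pvalb against Adarb2 and 0.0867% for Sst against Adarb2. For the common regions, a test added with the data in view, 0 of 16 passed in each contrast (smallest adjusted p 0.456), against 0.0279%, 0.148% and 0.274% of all common regions in the same order. An unadjusted p under 0.05 was reached by 2, 2 and 1 of the 16. One of them was Hcn4-r4 for Pvalb against Sst, whose log2 fold change was higher in hippocampus than in cortex by 0.78 ± 0.35 (adjusted p 0.567, edgeR).

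Over the 12 gate sums, centred within each library, the windows most like Hcn2 were those of Bcl7a (Pearson r = 0.992), Ppp1r12b (0.963) and RPS10-NUDT3 (0.961). For Hcn3 they were Lztr1 (0.942), Pyurf (0.941) and Tmod2 (0.920), and for Hcn4 Gm49711 (0.959), D430019H16Rik (0.944) and Mrps6 (0.939). Among the HCN genes r was -0.62 for Hcn2 with Hcn4, 0.12 for Hcn2 with Hcn3 and -0.28 for Hcn3 with Hcn4. These values are descriptive, since gates of a library share depth and the most alike of many candidates are high by selection.

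Genes that act with HCN channels or encode related channels were taken as 3 lists. Of the 9 partners (such as Pex5l, whose product TRIP8b is an auxiliary subunit), 2 passed for Pvalb against Adarb2, where 10.1% of all windows did, 1 for Pvalb against Sst (7.88%) and 0 for Sst against Adarb2 (10.5%, with 1 partner at an unadjusted p under 0.05 by edgeR and 0 called by DESeq2). Mrvi1, whose product binds Hcn4 and changes its gating, was higher in the Pvalb gate, with log2 fold changes of 0.87 ± 0.12 against Adarb2 (adjusted p 1.3e-05) and 0.55 ± 0.12 against Sst (adjusted p 0.00301, edgeR). Flna, an actin crosslinker, was lower in the Pvalb gate than in the Adarb2 gate (-0.31 ± 0.08, adjusted p 0.0122). The list's median was 0.13 for Pvalb against Adarb2, 0.00 for Pvalb against Sst and 0.12 for Sst against Adarb2, beside -0.01, 0.00 and -0.01 over all windows.

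None of the 10 adenylyl cyclases, the enzymes that make cyclic AMP, passed in the 3 gate contrasts by edgeR, and 1, 1 and 2 had an unadjusted p under 0.05, with list medians of 0.09, 0.08 and 0.02 for Pvalb against Adarb2, Pvalb against Sst and Sst against Adarb2. DESeq2 called 1 of them, Adcy2, for Pvalb against Sst, where edgeR gave a log2 fold change of -0.77 ± 0.21 (adjusted p 0.0752). Adcy2 was at 126.68, 100.14, 144.81 and 112.83 CPM in the Pvalb gate, 313.92, 198.41, 199.32 and 121.19 in the Sst gate and 158.61, 124.14, 196.39 and 112.1 in the Adarb2 gate. The Sst gate was the highest in all 4 libraries, by a wider margin in cortex. Adcy2 was also the 1 of 25 list genes whose gate differences passed the interaction test with brain region, as its contrast for Pvalb against Sst was higher in hippocampus than in cortex by 0.89 ± 0.14 on the log2 scale (adjusted p 0.00214, edgeR), where 0.119% of all windows passed.

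Of the 6 genes for related cyclic nucleotide-gated (CNG) channels, 3 passed for Pvalb against Adarb2 and 2 for Sst against Adarb2, beside 10.1% and 10.5% of all windows. For Pvalb against Sst 0 of 6 passed by edgeR or DESeq2, beside 7.88%, and 0 had an unadjusted p under 0.05. The list medians were -0.01, 0.10 and -0.09 in the same order. Cngb1 was lower than in the Adarb2 gate in both the Pvalb gate (-0.72 ± 0.11, adjusted p 5.8e-05) and the Sst gate (-0.58 ± 0.11, adjusted p 0.000793). Cngb3 was higher in both (0.42 ± 0.09, adjusted p 0.00278, and 0.46 ± 0.10, adjusted p 0.00154), and Cnga4 was called in 1 contrast, higher in the Pvalb gate than in the Adarb2 gate (0.30 ± 0.08, adjusted p 0.0117). Between hippocampus and cortex 0 of the 25 list genes passed by edgeR or DESeq2 and 0 had an unadjusted p under 0.05, with list medians of 0.05 for the partners, -0.07 for the cyclases and -0.05 for the CNG channels against -0.06 over all windows.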

How the data were processed

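Nuclei of 4 libraries (2 cortex, 2 hippocampus) were profiled by the submitters, whose processing notes name Cell Ranger ATAC 1.2.0 and the builds GRCm38 and mm10. The deposited matrices hold raw counts of cut sites per peak and barcode, with no normalization by the authors, and most values are even (78.3% to 83.9%). Motif matrices were not used here. Counts were summed over nuclei and scaled to the library total (CPM). Any peaks sharing 1 bp or more across libraries were joined, which gave 185260 regions, 46698 of them common to all libraries. Gene models came from GENCODE and sequences from the RefSeq promoter table and the GRCm38 genome.

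Gates used nuclei with at least 1000 cut sites, a marker count of at least 2 and the top 10% of each library. The count minimum was the tighter limit for Sst in 3 libraries. In cortex replicate 2 it was also tighter for Pvalb and Adarb2, met by 381 and 364 nuclei against 415 in the top 10%. Left out of the gate tests were 6 genes and 15 common regions next to the markers, none of them HCN. Tests were two-sided quasi-likelihood F tests in edgeR 4.0.16 (R 4.3.3) with library totals, filterByExpr and robust dispersion, at an adjusted p of 0.05, and DESeq2 1.42.0 was an alternative. The SE given for edgeR is the absolute log2 fold change divided by the square root of F, so it is approximate. Scripts were tested on simulated data. Doublets were not called, and leaving out the deepest 5% of nuclei was an alternative. Regions were named by a rule, the start region and the region with the smallest p at each gene in each comparison, plus every region past the threshold, which adds Hcn4-r11 and, for Pvalb against Sst, Hcn2-r5, chosen after their values were seen. Hcn2-r2, Hcn2-r8, Hcn2-r9, Hcn2-r10, Hcn3-r4, Hcn4-r2 and Hcn4-r16 were also named after their values were seen. The genes and lists were chosen with earlier results of these data known.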

Additional observations from a re-analysis of the deposited data

Results flagged for a closer look

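The window of Adcy2, which encodes an adenylyl cyclase, is given here because its differences between gates differed between the brain regions. The log2 fold change was higher in hippocampus than in cortex by 0.889 for Pvalb against Sst, and lower in hippocampus for Sst against Adarb2 (-0.813, adjusted p 0.00835, edgeR). With TMM, or gates of the top 5% or 20%, the first value ran from 0.892 to 0.923 and the second from -0.865 to -0.813, each past the threshold. The effect in each brain region rests on 2 libraries.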

How the results depend on the processing

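The 7 gate differences past the threshold (1 for the Hcn2 window, 2 for Hcn2-r5, 1 for Hcn2-r7, 1 for Hcn4-r11 and 2 for Hcn4-r4) kept their direction in all 77 refits and their call in 51. Leaving out 1 library at a time gave log2 fold changes of 0.18 to 0.25 for the Hcn2 window, 0.53 to 0.78 for Hcn2-r5, 0.55 to 1.05 for Hcn2-r7, 0.63 to 1.01 for Hcn4-r11 and -0.88 to -0.53 for Hcn4-r4 (Pvalb against Sst), -0.80 to -0.47 for Hcn4-r4 against Adarb2 and -0.68 to -0.39 for Hcn2-r5 (Sst against Adarb2). HCN regions called then ran from 0 to 5, 0 to 1 and 0 to 0 for Pvalb against Sst, Pvalb against Adarb2 and Sst against Adarb2, and HCN windows from 0 to 1 for Pvalb against Sst. A gate of the top 5% ended the calls of the Hcn2 window (0.23), Hcn2-r5 (0.63 and -0.52), Hcn2-r7 (0.67) and Hcn4-r4 against Adarb2 (-0.60), which left 0 windows and 2, 0 and 0 regions. Markers counted over 20 kb either side ended those of the Hcn2 window (0.12), Hcn2-r5 (0.25 and -0.19), Hcn2-r7 (0.69), Hcn4-r11 (0.52) and Hcn4-r4 against Sst (-0.45), which left 0 windows and 0 regions for Pvalb against Sst and 0 regions for Sst against Adarb2. The cause was not tested. A gate of the top 20% does not widen the Sst gate outside cortex replicate 1, since the minimum of 2 cut sites already limits it there. The top 5% hardly narrowed it, with 174, 248 and 129 nuclei against 171, 264 and 127 in cortex 2, hippocampus 1 and hippocampus 2. In cortex replicate 2 the top 20% also left the Pvalb and Adarb2 gates near their size, at 325 and 306 nuclei against 312 and 300.

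Features called over all genes or regions fell with the wider marker count to 387, 764 and 1240 windows and to 1551 and 3498 regions (Pvalb against Sst, Pvalb against Adarb2 and, for windows, Sst against Adarb2). Without 1 library they ran from 538 to 1234, 818 to 1574 and 1094 to 1539 windows, and from 3055 to 5748 and 4440 to 6978 regions, with fewer samples. Interaction calls with gates of the top 20% were 56, 34 and 40 windows and 32 and 188 regions, and with the top 5% 13 windows (Pvalb against Sst) and 0, 14 and 14 regions.

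Between brain regions, the main fit called 16 windows and 275 regions. TMM gave 0 and 0, covered length as an offset 0 and 0, DESeq2 214 windows and 1 HCN region, counts within 1 kb of the start 5 windows, and regions at least 50% covered 34. TMM moved the median log2 fold change of common regions from -0.17 to -0.02. Without 1 library the calls ran from 1 to 759 windows, 35 to 4741 regions and 0 to 2 HCN regions, where a lone library is assumed to vary like the other group. The replicate block gave 0 windows and 0 regions. Same-numbered libraries correlated at 0.067 (windows) and -0.027 (regions) in their deviations. With 2 libraries per group this cannot show whether the numbers pair libraries. The main fit used no block, and pairing was left unsettled. Crossed pairing, added with the data in view, gave 1283 regions.

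Signs of uncalled values changed in some refits. Of the refits of uncalled log2 fold changes, 40 reversed the sign, 308 kept it without passing and 1 kept it and passed. In the brain region comparison the Hcn2 window moved from -0.04 to 0.033 (TMM), 0.037 (DESeq2), 0.010 (replicate block), 0.0098 (crossed block) and 0.60 (body and 2 kb upstream), and Hcn3 from 0.01 to -0.86 (offset) and -0.18 (common regions). The offset gave -0.12 for Hcn2-r7 and -0.70 for Hcn3-r5, beside a median of -0.46 over all common regions. Without 1 library the ranges were -0.38 to 0.40, -0.27 to 0.36 and -0.55 to 0.31 for Hcn2, Hcn3 and Hcn4, -0.87 to 0.092 for Hcn2-r3, -0.86 to 0.027 for Hcn3-r13, -0.59 to 0.038 for Hcn4-r17 and -1.03 to 0.38 for Hcn4-r4. Between gates Hcn3 reached -0.018, -0.010 and -0.00095 (top 5%, top 20%, wider markers) for Pvalb against Adarb2 and -0.021, -0.030 and -0.050 for Sst against Adarb2, and without 1 library -0.0037 to 0.082 and -0.039 to 0.058. With wider markers Sst against Adarb2 became 0.0028 for Hcn2, -0.14 for Hcn4, 0.12 for Hcn2-r3, -0.054 for Hcn4-r17 and -0.19 for Hcn4-r4. With the top 20% it became 0.010 for Hcn3-r13 and -0.054 for Hcn3-r5, and without 1 library -0.21 to 0.0030 and -0.19 to 0.14, while Hcn3-r5 ran from -0.31 to 0.038 for Pvalb against Sst. Interactions with the top 5% became 0.28 for Hcn2 and 0.11 for Hcn4 (Pvalb against Adarb2) and 0.073 for Hcn2 (Sst against Adarb2).

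Cortex replicate 2 limits depth, with 11 to 34 cut sites per gate at Hcn2-r7.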
